A study of Mus musculus with 18 samples.

Results

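Memory-phenotype CD8 T cells of Dock2-deficient mice were compared with those of wild-type mice by RNA sequencing of whole sorted populations. The comparison took 5 libraries titled Dock2 memory and 4 titled wild-type memory, 9 of the 18 libraries of the series, and followed the 9437 of 46983 listed genes that had a value of 10 or more in at least 4 of the 18 libraries. The other 9 libraries, 5 Dock2-deficient and 4 wild type, were of naive CD8 T cells and entered the same model. Dock2-deficient mice carried the Hsd allele of Dock2 on both copies (Dock2-Hsd/Hsd). Wild-type mice carried neither. No treatment, age or pooling of animals was named, and the source was given as memory CD8 T cells, called CD44hi in the descriptions.

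Every library had C57BL/6J in its strain field, but the description field read C57L6NHsd for the Dock2-deficient and C57BL6J for the wild-type libraries. Genotype, substrain and the colony of the mice therefore cannot be told apart. Whether replicates came from separate animals was not stated in the labels. The p-values then measure only the spread among these libraries, and that spread may be technical.

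Dock2 is a guanine nucleotide exchange factor of blood cells that loads the small GTPase Rac with GTP. Through it, chemokine receptors and the T cell receptor reach the actin cytoskeleton, and T cells without it migrate poorly. Memory-phenotype CD8 T cells carry the surface marker CD44 at a high level, depend on the cytokine IL-15, read through the receptor chain Il2rb, and hold receptors of the natural killer (NK) type, some of them activating and some inhibitory. The Hsd allele is known as a duplication inside the gene that shifts the reading frame, so the gene's summed RNA tests the label only in part.

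Values are expected read counts, scaled between libraries by the authors. The 9 memory libraries held about 2215990 to 5919870 expected reads, of which the ribosomal RNA gene Rn18s-rs5 took 37.0% to 69.4%, and 12363 to 14431 genes above 0. Wild-type library 4 had the lowest correlations with the other wild-type libraries (0.786 to 0.795 across genes, against 0.905 to 0.919 among the other 3), and Dock2-deficient library 5 lay farthest toward short genes, as given with the ribosomal protein genes. Values were also computed without these 2 libraries. Xist, the RNA that coats the inactive X chromosome, was 3735, 3867, 3887 and 2760.2 in the wild-type libraries, 2593 in Dock2-deficient library 1 and 0 in the other 4. Sex therefore moved with genotype except in Dock2-deficient library 1. Of the defining markers of other cells, Cd79a, Lyz2, Adgre1, Cd4, Foxp3, Ncr1 and Il17a were under 10 in every memory library, and Cd3e was 1734 or higher in every one. Other members of the marker lists reached 10, as given with the sums. Of the 14 B cell and plasma cell markers 8 were under 10 in every memory library, but Ighm, the IgM heavy chain gene, averaged 464.7 in wild-type and 638.7 in Dock2-deficient cells, and Cd79b, a chain of the B cell receptor, 33.3 and 25.5. Their sum was 451 to 715 in the wild-type and 589.9 to 898 in the Dock2-deficient libraries (exact permutation test, two-sided, p = 0.0794, adjusted over 14 library measures 0.185). Erythroid and platelet markers, 6 of 9 under 10 in every memory library, summed to 1.75 to 5.16 and 0 to 53.1 (exact permutation p = 0.222, adjusted 0.346). CD4 and regulatory T cell markers summed to 288 to 432.7 and 223 to 454 (exact permutation p = 0.651, adjusted 0.651). Of these 8 markers 4 were under 10 in every memory library. The others averaged, in wild-type and Dock2-deficient cells, 183.9 and 198.6 (Cxcr5), 64.4 and 51.8 (Icos), 64.1 and 60.9 (Gata3) and 44.0 and 18.8 (Ikzf2).

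In the Dock2-deficient memory libraries, 3 genes were higher and 2 lower than in the wild-type ones past the test. Klra8, which encodes the activating NK receptor Ly49H, Fcgrt, which encodes the heavy chain of the neonatal Fc receptor that recycles IgG and albumin, and Tmie, which encodes a membrane protein of the mechanotransduction channel of inner ear hair cells, were higher. Pydc3, a member of the interferon-inducible IFI200 family of pyrin-domain proteins, and Gm43056, an unnamed long non-coding RNA, were lower. The 5 genes made up 0.053% of the 9437 tested (limma, adjusted p under 0.05), with 0.0318% called higher and 0.0212% lower. An unadjusted p under 0.05 was reached by 1546 genes (16.4%), 747 higher (7.92%) and 799 lower (8.47%). The groups did not overlap for 419 genes (4.44%; 2.06% higher, 2.38% lower). Log2 fold changes are differences of log2(value + 1), Dock2-deficient minus wild type, with their standard error (SE), and have a median of 0.01 over all genes tested. Of the 9437 genes, 4801 had a log2 fold change above 0. The counts of list members below are to be read beside these shares over all genes. In bulk RNA a lower value can come from fewer cells with the RNA or from less RNA per cell, and these cannot be told apart.

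**Figure D1:**
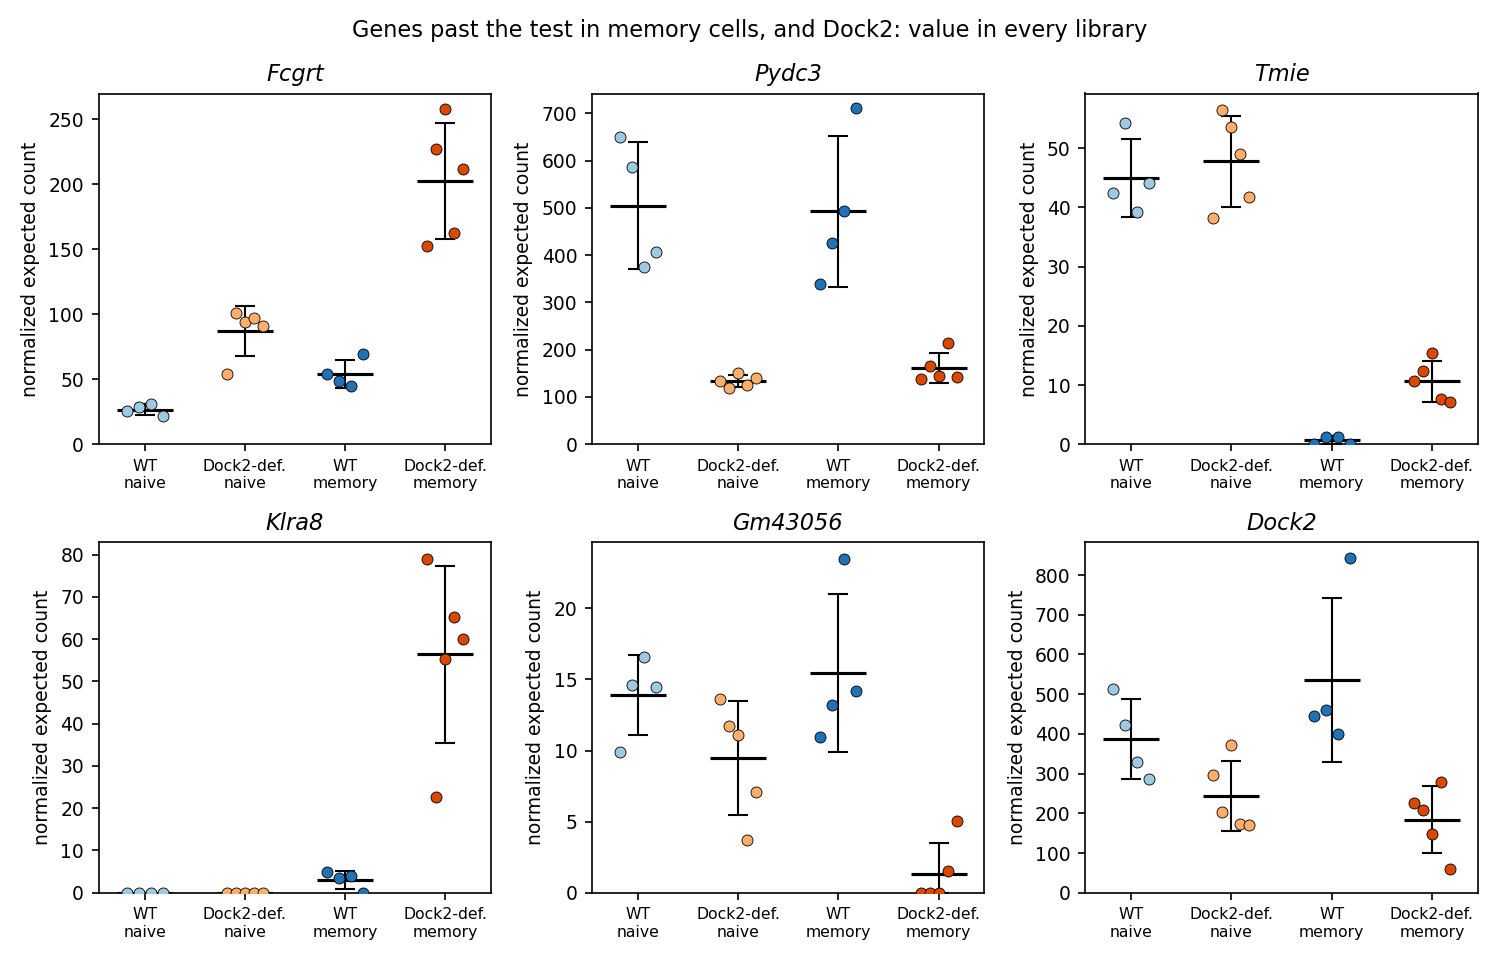
Normalized expected count of the 5 genes past the test and of Dock2 in every library (points) by group, with the group mean (line) and SD (bar, drawn no lower than 0). Fcgrt, Tmie and Klra8 lay higher, and Pydc3, Gm43056 and Dock2 lower, in all 5 Dock2-deficient memory libraries than in any wild-type one.

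Klra8 (ENSMUSG00000089727, chr6:130115226-130129898, minus strand, mm10) stands in the cluster of Ly49 receptor genes. Its value was 4.81, 3.55, 3.94 and 0 in the wild-type memory libraries and 79.0, 22.6, 55.3, 65.3 and 60.0 in the Dock2-deficient ones. All 5 Dock2-deficient libraries lay above every wild-type library, and library 2 was the lowest of them. The means were 3.08 ± 2.12 in wild type (SD, n = 4) and 56.4 ± 20.9 in Dock2-deficient cells (SD, n = 5), a log2 fold change of 3.98 ± 0.63 (limma, adjusted p = 0.00825). In reads recovered from the scaling this was 14 against 240, a ratio of 19.0 with an exact 95% interval of 11.1 to 35.2, which covers counting error only. Klra8 was listed at 0 in all 9 naive libraries. It thus met the filter on level only through the Dock2-deficient memory libraries, so filter and call are not independent. The naive groups, with an SD of 0, entered the spread behind its SE. In the 9 memory libraries alone it was called (limma, adjusted p = 0.0298). The call was lost without Dock2-deficient library 3 (adjusted p = 0.0618), without library 5 (adjusted p = 0.0530) or without wild-type library 4 and Dock2-deficient library 5 together (3.34, adjusted p = 0.187). It was also lost with a filter at 50 (adjusted p = 0.386) or with 0.5 added to the values in place of 1 (adjusted p = 0.0788).

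Klra4, which encodes the related activating receptor Ly49D, did not pass the test. It was 3.78, 10.8, 8.12 and 8.04 in the wild-type and 39.3, 21.01, 29.0, 25.5 and 53.6 in the Dock2-deficient libraries of memory cells. As for Klra8, the groups did not overlap (1.99 ± 0.54, adjusted p = 0.228). Of the inhibitory members, Klra7 and Klra1 are given here, and neither passed. Klra7, which encodes Ly49G, was 89.4, 84.4, 84.5 and 45.3 in the wild-type and 3.25, 15.1, 21.8, 48.9 and 27.7 in the Dock2-deficient libraries (-1.998 ± 0.61, adjusted p = 0.228). These groups overlapped, through wild-type library 4 and Dock2-deficient library 4. Klra1, which encodes Ly49A, was 38.1 ± 6.92 (SD, n = 4) and 18.4 ± 12.5 (SD, n = 5), with overlapping groups (-1.26 ± 0.57, adjusted p = 0.292). The Klra genes are near copies, and RSEM shares reads between copies as estimates, so the split among them is uncertain.

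The 250 bases upstream of Klra8 (chr6:130129899-130130148) and Klra4 (chr6:130067272-130067521), both on the minus strand of GRCm38.p6 and taken from RefSeq's promoter windows, are shown because these were the members of the cluster that were higher in every Dock2-deficient library. Capitals mark the bases at which the aligned windows differ, and the sequences run 5′ to 3′ toward the start of transcription.

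Klra8: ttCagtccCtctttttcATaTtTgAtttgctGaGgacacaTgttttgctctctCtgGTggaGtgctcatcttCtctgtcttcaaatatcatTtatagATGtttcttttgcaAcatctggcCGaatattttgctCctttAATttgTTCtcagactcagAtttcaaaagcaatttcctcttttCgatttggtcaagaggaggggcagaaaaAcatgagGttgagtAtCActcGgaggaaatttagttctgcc

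Klra4: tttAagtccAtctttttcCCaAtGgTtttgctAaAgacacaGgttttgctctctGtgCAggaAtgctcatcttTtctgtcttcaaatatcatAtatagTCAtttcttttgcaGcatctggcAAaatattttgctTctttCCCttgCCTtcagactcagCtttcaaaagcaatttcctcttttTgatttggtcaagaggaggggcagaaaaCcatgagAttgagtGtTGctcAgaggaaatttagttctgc

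Of the 249 aligned bases, 212 were identical (85.1%) and 37 differed. The same window of Klra8 was 68.3% identical to that of Klra7 over 139 aligned bases and 69.8% identical to that of Klra1 over 43. Gaps at the ends were free in the alignment, so these overlaps cover only part of the windows. They cannot be set against the 249 bases shared with Klra4. Klra8 had 2 listed starts, of which the first was used. Nothing in the data measured binding or activity at these windows.

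Fcgrt (ENSMUSG00000003420, chr7:45092990-45103851, minus strand, mm10) had 53.9, 48.5, 45.1 and 69.1 in the wild-type memory libraries and 153, 227, 258, 163 and 211 in the Dock2-deficient ones. Every Dock2-deficient library was above the highest wild-type value. The means were 54.1 ± 10.6 in wild type (SD, n = 4) and 202 ± 44.2 in Dock2-deficient cells (SD, n = 5), and the log2 fold change was 1.87 ± 0.23 (limma, adjusted p = 0.000382). The call held in each of the 9 fits that left out 1 memory library (adjusted p at most 0.00438). In naive cells Fcgrt rose too, from 25.3, 28.9, 30.7 and 21.4 to 53.6, 100.5, 93.7, 97.0 and 90.6, again without overlap (1.65, adjusted p = 0.000874). The change in memory cells did not differ past the test from that in naive cells (difference 0.22, adjusted p = 0.908).

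Pydc3 (ENSMUSG00000066677, chr1:173673675-173698395, plus strand, mm10) had 338, 426, 494 and 712 in the wild-type memory libraries and 138, 166, 145, 214 and 141 in the Dock2-deficient ones. The lowest wild-type library lay above the highest Dock2-deficient library. The means were 493 ± 159.5 in wild type (SD, n = 4) and 161 ± 31.6 in Dock2-deficient cells (SD, n = 5), and Pydc3 fell by 1.57 ± 0.22 on the log2 scale (limma, adjusted p = 0.00179). It was called in each of the 9 fits that left out 1 library (adjusted p at most 0.0142). In a fit of the 9 memory libraries alone the call was lost (limma, adjusted p = 0.0525). Pydc3 fell in naive cells as well (-1.87, adjusted p = 0.000189). The difference between both changes was 0.29 (adjusted p = 0.855). IFI200 genes are near copies of each other, so the split of reads among them is uncertain.

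Tmie (ENSMUSG00000049555, chr9:110865711-110880113, minus strand, mm10) was nearly absent from wild-type memory cells, with values of 0, 1.26, 1.29 and 0. The Dock2-deficient libraries had 10.7, 12.3, 15.5, 7.66 and 7.08. All 5 lay above the wild-type libraries, at a low level that rested on 42 recovered reads against 3 (ratio 15.5, exact 95% interval 4.95 to 78.1, counting error only). The log2 fold change was 2.90 ± 0.35 (limma, adjusted p = 0.000382), called in each of the 9 fits that left out 1 library. Tmie was not called in a fit of the 9 memory libraries alone (limma, adjusted p = 0.276). In naive cells, where the gene is more abundant, wild type averaged 44.95 ± 6.52 (SD, n = 4) and Dock2-deficient cells 47.8 ± 7.70 (SD, n = 5), with no call (0.08, adjusted p = 1). The change in memory cells exceeded that in naive cells by 2.82 ± 0.50 (limma, adjusted p = 0.0495). This difference lost its call in 8 of 9 fits that left out 1 memory library, all but the one without wild-type library 2, with adjusted p up to 0.141 without Dock2-deficient library 2.

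Gm43056 (ENSMUSG00000106507, chr5:86683850-86686640, minus strand, mm10) was 10.95, 13.2, 23.5 and 14.2 in the wild-type and 0, 0, 0, 1.51 and 5.04 in the Dock2-deficient libraries of memory cells. Only Dock2-deficient libraries 4 and 5 held any of it, below the lowest wild-type value. It fell by 3.20 ± 0.56 on the log2 scale (limma, adjusted p = 0.0244). The recovered reads were 69 and 7, a ratio of wild type to Dock2-deficient of 8.91 (exact 95% interval 4.10 to 22.98). The call was kept in 3 of 9 fits, those without Dock2-deficient library 1, 4 or 5, and lost without any of the wild-type libraries or Dock2-deficient library 2 or 3 (adjusted p up to 0.113, without wild-type library 3). A fit of the 9 memory libraries alone did not call Gm43056 (limma, adjusted p = 0.327). The naive change was -0.59 (adjusted p = 0.977).

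Among the memory libraries, sex and genotype could be set apart only through Dock2-deficient library 1. The term for sex given below was fitted over all 18 libraries. Xist also varied among the Dock2-deficient naive libraries, at 444.5 ± 991 (SD, n = 5), against 2534 ± 717 in wild-type naive ones (SD, n = 4). That term therefore drew on the naive libraries too. For all 5 called genes Dock2-deficient memory library 1 lay on the Dock2-deficient side, outside the wild-type range. The genes were called with that library in the fit, so its side is not a separate test. With a term for sex in the model no gene passed, the adjusted p being 0.117 for Tmie, Fcgrt, Pydc3 and Klra8 and 0.262 for Gm43056, while their log2 fold changes were 2.77, 1.36, -1.67, 4.27 and -3.30.

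Dock2 itself (ENSMUSG00000020143, chr11:34226815-34783892, minus strand) was lower in every Dock2-deficient memory library than in any wild-type one, but did not pass the test over all genes. The highest Dock2-deficient value, in library 4, was 279.6, and the lowest wild-type value, in library 3, was 399.7. The log2 fold change was -1.64 ± 0.36 (limma, adjusted p = 0.121), and its range was -1.83 to -1.28 when 1 library was left out. It was -1.04 (adjusted p = 0.509) without wild-type library 4, which had the highest value, and Dock2-deficient library 5, which had the lowest. The 22 tested genes within 5 Mb of Dock2 had a median of -0.11 (-0.98 to 2.30), with 0 called and 6 at an unadjusted p under 0.05. Over all genes tested, 16.4% had such a p.

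**Figure D2:**
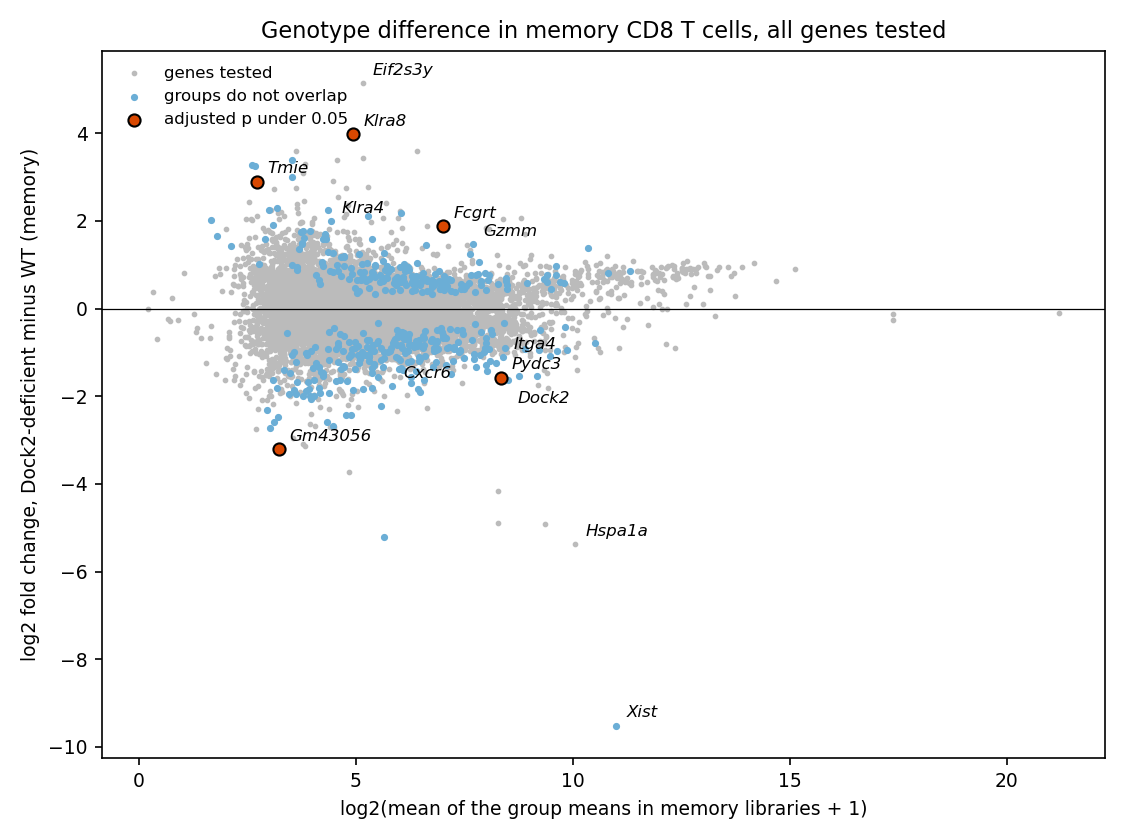
Log2 fold change of each of the 9437 genes in memory cells (vertical axis) against log2 of the mean of both group means plus 1 (horizontal axis). Blue points are the 419 genes whose groups do not overlap, orange points the 5 with an adjusted p under 0.05, and labels mark genes of the text and the Y-linked gene Eif2s3y.

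Below the threshold, named genes with a mean of at least 50, no overlap and at least a 2-fold difference were taken in order of unadjusted p. None of them passed. Cxcr6, the receptor for the membrane-bound chemokine CXCL16, was 68.8, 68.0, 107 and 107 in the wild-type and 24.9, 27.2, 17.2, 17.9 and 39.8 in the Dock2-deficient libraries of memory cells. The groups were well apart (-1.78 ± 0.37, limma, adjusted p = 0.0957). Itga4, which encodes the integrin chain CD49d, was 389.6, 527, 472 and 412 against 225, 236, 217, 317 and 101. The 2 groups did not overlap, and library 5 was the lowest (-1.12 ± 0.29, adjusted p = 0.222). Cd160, a receptor of the immunoglobulin family on memory CD8 T cells and NK cells, was tight in the wild-type libraries at 118, 111, 126.3 and 118. Its Dock2-deficient values were 79.9, 27.2, 22.3, 44.3 and 68.1, all lower (-1.43 ± 0.37, adjusted p = 0.189).

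Also lower without overlap were Wdr81, an endosomal regulator (-1.91), and Spg11, the lysosomal protein spatacsin (-1.69). So were Iqsec1, an exchange factor for the GTPase Arf6 (-1.29), and Mlxip, a glucose-responsive transcription factor (-1.33). The kinase gene Taok2 (-1.08), the chromatin remodeller gene Chd2 (-1.13) and the transcription factor gene Rfx7 (-1.29) were also of this kind, with adjusted p between 0.121 and 0.228 in limma for these 7 genes. Iqsec1 was at -0.86 without wild-type library 4 and Dock2-deficient library 5. The 7 genes are long, with 7038 (Wdr81) to 15302 (Rfx7) exonic bases. Itga4 is long too (13978), but Cxcr6 (1931) and Cd160 (2642) are not. Log2 fold changes fell with exonic length, as given below. Of 960 genes with a mean of at least 50 and at least 7734 exonic bases, 215 were lower and 15 higher (limma, unadjusted p under 0.05). How much of the fall of the long genes goes with length was not tested.

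Higher in Dock2-deficient cells was Gzmm, a granzyme of cytotoxic lymphocytes, at 116, 76.2, 139 and 104 in the wild-type and 280.5, 307.5, 412, 219.6 and 297.2 in the Dock2-deficient libraries of memory cells. The lowest Dock2-deficient library was well above the highest wild-type one (1.47 ± 0.51, limma, adjusted p = 0.246). Fau, a ribosomal protein made as a fusion with a ubiquitin-like domain, had a log2 fold change of 1.38, and Rpl5, a protein of the large ribosomal subunit, of 1.24. Vamp3, a vesicle fusion protein, had 1.01, and Vps33a, a tethering protein of endosomes and lysosomes, 1.28. Wdr89 had 1.46, Errfi1, an inhibitor of EGF receptor signalling, 1.10, and Plek, the protein kinase C substrate pleckstrin, 1.06. Their adjusted p ran from 0.228 to 0.311. Gzmm and these genes have 961 (Fau) to 4790 (Vps33a) exonic bases, and genes of up to 4870 bases were more often higher than lower, as given below. For Vamp3, Vps33a and Plek wild-type library 4 was well below the other wild-type libraries, at 15.7, 5.24 and 73.4. Without that library the log2 fold change of Vamp3 was 0.54 and that of Vps33a 0.58, and without Dock2-deficient library 5 as well they were 0.50 and 0.57.

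Genes that define memory CD8 cells showed no call among 24 tested. Their median log2 fold change was -0.17, beside 0.01 for all genes tested, with 2 higher and 3 lower at an unadjusted p under 0.05. Cd44, the gene of the sorting marker, was 216, 210.3, 220.4 and 124 in the wild-type and 172, 209, 222, 188 and 179.6 in the Dock2-deficient libraries. The groups lay over each other apart from a lower wild-type library 4 (0.04 ± 0.55, limma, adjusted p = 0.975). Il2rb, the IL-2 and IL-15 receptor chain, had means of 3804 ± 512 (SD, n = 4) and 2994 ± 688 (SD, n = 5) with overlap (-0.37, adjusted p = 0.47). Eomes, a transcription factor of memory CD8 cells, had 81.6 ± 13.5 and 70.2 ± 8.88 (-0.21, adjusted p = 0.839). Ccr7, the lymph node homing receptor, was higher in all 5 Dock2-deficient libraries, by a small margin: 444, 514, 529.8 and 619 against 682, 704, 938, 625 and 1185 (0.62 ± 0.20, adjusted p = 0.238).

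Among 20 tested naive and quiescence genes Tmie was the 1 call, and the median was -0.02. Ccr9, a gut-homing receptor of naive CD8 cells, was 2.35 ± 2.17 (SD, n = 4) and 6.70 ± 3.85 (SD, n = 5), and Itgae, the integrin chain CD103, was 13.96 ± 13.2 and 3.34 ± 3.49, both with overlap. Igfbp4, a binding protein of insulin-like growth factors, was 29.5 ± 14.04 and 14.3 ± 6.24, also with overlap. The 3 genes did not pass (limma, adjusted p = 0.238, 0.228 and 0.238).

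NK receptors and adaptors, a list that leaves out Klra8, had 15 tested members and 0 called. The median was -0.47, with 1 member higher (Klra4) and 5 lower at an unadjusted p under 0.05. Klrk1, which encodes the activating receptor NKG2D, was 102, 183, 130.2 and 146 in the wild-type and 23.1, 46.9, 30.9, 108 and 33.6 in the Dock2-deficient libraries of memory cells. Only Dock2-deficient library 4 reached into the wild-type range (-1.70 ± 0.57, limma, adjusted p = 0.238). Klrd1, which encodes CD94, the partner chain of the NKG2 receptors, was 210.0 ± 38.6 (SD, n = 4) and 245 ± 93.4 (SD, n = 5). Klrc1, the gene of the inhibitory receptor NKG2A, had 93.2 ± 11.9 and 82.1 ± 38.8. Both overlapped between the genotypes (0.16 and -0.30, adjusted p = 0.807 and 0.761), and the sign for Klrd1 was negative in 7 of 27 alternative analyses.

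Levels of markers of NK cells and of gamma delta and natural killer T (NKT) cells are given beside these receptors. The summed value of the 8 NK and innate lymphocyte markers was 273 to 336 in the wild-type and 186 to 284 in the Dock2-deficient libraries (exact permutation test, two-sided, p = 0.0476, adjusted over 14 library measures 0.167). Most of the sum came from Cd7, with means of 165.6 in wild-type and 128.3 in Dock2-deficient cells, and from Eomes, with 81.6 and 70.2. Eomes is also a gene of memory CD8 cells. Of the 8 markers 4 were under 10 in every memory library (Ncr1, Tyrobp, Klrb1f and Klrb1b), and 0 of the 4 tested were called. The summed value of 12 gamma delta and NKT cell markers was 184, 175.7, 248 and 294 in the wild-type and 170, 137, 141, 108 and 167 in the Dock2-deficient libraries. These sums did not overlap (exact permutation p = 0.0159, the smallest that 4 against 5 libraries allow, adjusted 0.167). Of the 12, 5 were under 10 in every memory library, among them Il17a, Zbtb16 and Sox13, and 0 of 5 tested were called. Tcrg-C2, a constant segment of the gamma chain, was 22.6, 19.9, 27.8 and 33.3 against 8.88, 6.17, 11.6, 11.6 and 6.72, without overlap (-1.44 ± 0.49, limma, adjusted p = 0.238). Cxcr6 belongs to this list and made up much of the difference. Without it, a choice made after seeing the data, the sum was 107.7 to 187 in the wild-type and 90.2 to 146 in the Dock2-deficient libraries, with overlap. Cd163l1, a scavenger receptor of gamma delta T cells and the most abundant other member, was 61.9 ± 26.4 (SD, n = 4) and 89.5 ± 23.4 (SD, n = 5), on the other side and with overlap (0.59, adjusted p = 0.391). Myeloid and dendritic cell markers summed to 6.68 to 26.4 in the wild-type and 18.1 to 79.2 in the Dock2-deficient libraries (exact permutation p = 0.0476, adjusted 0.167), mostly from the integrin genes Itgam and Itgax, while 11 of the 13 were under 10 in every memory library. The part of such cells in the values of Cxcr6 and of the NK receptors was not tested.

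The 13 cytotoxic and effector molecules tested had a median of 0.27 and 0 called. Besides Gzmm, the first members were Gzma, a granzyme, at 12.1 ± 8.37 (SD, n = 4) and 19.8 ± 8.29 (SD, n = 5), and Prf1, the pore-forming perforin, at 117 ± 11.6 and 139.8 ± 32.8. Both overlapped between the genotypes (0.75 and 0.22, limma, adjusted p = 0.588 and 0.678). The median turned negative with scaling to the total and with a term for sex, at its lowest -0.03.

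Genes that report T cell receptor signal strength had 17 tested members, 0 called and a median of -0.64, with 2 members higher and 3 lower at an unadjusted p under 0.05. Cd5, a surface regulator whose level follows receptor signalling, was 226, 241, 199 and 219 in the wild-type and 291, 364, 319.7, 237 and 328 in the Dock2-deficient libraries of memory cells. All but library 4 of the Dock2-deficient libraries were above the wild-type range (0.46 ± 0.17, limma, adjusted p = 0.253). The orphan nuclear receptor gene Nr4a3 was 19.9, 20.2, 19.3 and 13.1 against 8.88, 4.94, 1.72, 5.11 and 1.77. It did not overlap and lay on the opposite side from Cd5 (-1.96 ± 0.59, adjusted p = 0.228). Nr4a1, its relative, was 107 ± 43.5 (SD, n = 4) and 71.4 ± 34.7 (SD, n = 5) with overlap (-0.64, adjusted p = 0.438). Egr1, an early response factor, was 234 ± 86.0 and 111 ± 91.6, and was at -1.69, or -0.96 without wild-type library 4 and Dock2-deficient library 5. Izumo1r, the folate receptor-like protein FR4, was 31.7 ± 21.1 and 8.06 ± 5.08. Without wild-type library 4 and Dock2-deficient library 5 the list's median was -0.37.

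AP-1 and immediate early genes had the lowest median of the lists of T cell functions, -0.82 over 17 tested, with 0 called, 0 higher and 4 lower at an unadjusted p under 0.05. Fos was 1193, 926, 681 and 308.6 in the wild-type memory libraries and 914, 783, 1249, 7.66 and 37.2 in the Dock2-deficient ones. The Dock2-deficient libraries split into libraries 1 to 3, near the wild-type values, and libraries 4 and 5, far below them. The log2 fold change was -1.82, and -0.69 without Dock2-deficient library 4 (limma, adjusted p = 0.468 and 0.75). Hspa1a, the inducible heat shock protein HSP70, was 1894, 1015, 1666 and 1284 against 23.1, 861, 2353, 0 and 0. Libraries 1, 4 and 5 were low here and libraries 2 and 3 were not (-5.37 ± 2.10, limma, adjusted p = 0.259). Fosl2, an AP-1 subunit, differed more evenly, at 88.4 ± 15.7 (SD, n = 4) and 37.1 ± 19.2 (SD, n = 5) with no overlap (-1.38 ± 0.44, adjusted p = 0.236). With a term for sex the list's median was 0.13.

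Among the proximal signalling genes of the T cell receptor, 23 tested, the median was 0.04 and 0 were called. Cd8b1, the beta chain of the CD8 co-receptor, was 1487, 1593, 1923 and 2002 in the wild-type and 2022, 3065, 4486, 2135 and 5276 in the Dock2-deficient libraries of memory cells. The groups touched but did not overlap (0.86 ± 0.29, limma, adjusted p = 0.238). Cd8a, its partner, had 643 ± 22.5 (SD, n = 4) and 1016 ± 325 (SD, n = 5), and Cd3d, a chain of the receptor complex, 701 ± 59.1 and 1091 ± 393, both without overlap (0.61 and 0.58, adjusted p = 0.253 and 0.273). Cd3e, another chain of that complex, overlapped (-0.25, adjusted p = 0.605).

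The DOCK, ELMO and Rac genes gave 0 called among 23 tested, a median of -0.24, and 2 higher and 6 lower at an unadjusted p under 0.05. The lower ones included other large exchange factors, whose genes are long, with 18267 exonic bases for Dock10 and 10070 for Dock8. Of the 23 tested, 8 were in the longest of 4 bins by exonic length. Among 960 genes with a mean of at least 50 and at least 7734 exonic bases, 215 were lower (limma, unadjusted p under 0.05). With the trend on length removed within each library the list's median was -0.13, with 7 members at an unadjusted p under 0.05. How much of these falls goes with length was not tested. Dock10 was 303.7, 310.5, 322 and 327 in the wild-type and 172, 195, 137, 303.05 and 69.6 in the Dock2-deficient libraries of memory cells, and Dock8 was 709, 865, 634 and 1187 against 534, 515, 418, 718 and 173. Dock2-deficient library 5 was lowest for both, and Dock10 did not overlap (-0.997 and -0.94, limma, adjusted p = 0.246 and 0.253). Dock8 was at -0.44 without wild-type library 4 and Dock2-deficient library 5. The small GTPase gene Rhoa was 483, 470.3, 601 and 469 against 675, 917, 1325, 678 and 1691, higher in all 5 libraries (0.97 ± 0.24, adjusted p = 0.171). Rac2, the Rac of blood cells and the substrate of Dock2, was 2012 ± 180.1 (SD, n = 4) and 3163 ± 1479.6 (SD, n = 5) with overlap (0.53, adjusted p = 0.335). Elmo1, which binds Dock2, overlapped as well (-0.42, adjusted p = 0.495). Without wild-type library 4 and Dock2-deficient library 5 the median was -0.04. Dock5, a relative of Dock2, was low and overlapped (0.56, adjusted p = 0.782), with a negative sign under 3 alternatives.

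The 24 actin cytoskeleton genes tested had 0 called and a median of 0.33, or 0.14 without wild-type library 4 and Dock2-deficient library 5. Of the 24, 17 were above 0, beside 4801 of all 9437 genes tested. At an unadjusted p under 0.05 in limma 3 were higher and 5 lower, beside 7.92% and 8.47% of all genes. Without overlap, 1 was higher and 3 were lower, beside 2.06% and 2.38% of all genes. The cytoplasmic actin genes Actb and Actg1 overlapped between the genotypes (0.63 and 0.33, limma, adjusted p = 0.491 and 0.652), and both were below 0 after quantile normalization. Arpc1b, a subunit of the Arp2/3 complex that branches actin filaments, was 695 ± 92.8 (SD, n = 4) and 1107 ± 534 (SD, n = 5), also with overlap (0.57, adjusted p = 0.299).

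Interferon-stimulated genes went both ways, with Pydc3 the 1 call among 30 tested, a median of -0.16, and 5 members higher and 5 lower at an unadjusted p under 0.05. Oas2, an antiviral sensor of double-stranded RNA, was 36.5, 33.4, 16.8 and 42.0 in the wild-type and 1.78, 11.1, 10.3, 9.36 and 0 in the Dock2-deficient libraries of memory cells. It did not overlap (-2.59 ± 0.77, limma, adjusted p = 0.228). Igtp, a GTPase induced by interferon gamma, was 112, 103, 98.9 and 73.6 against 119, 234, 171, 142 and 159. It was higher in all 5 Dock2-deficient libraries (0.75, adjusted p = 0.228). Isg20, Ifit1 and Ifit3, the first members of the list, overlapped between the genotypes (-1.08, -0.94 and -0.33, adjusted p = 0.259, 0.402 and 0.741), and Irf7 differed little (-0.15, adjusted p = 0.763).

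**Figure D3:**
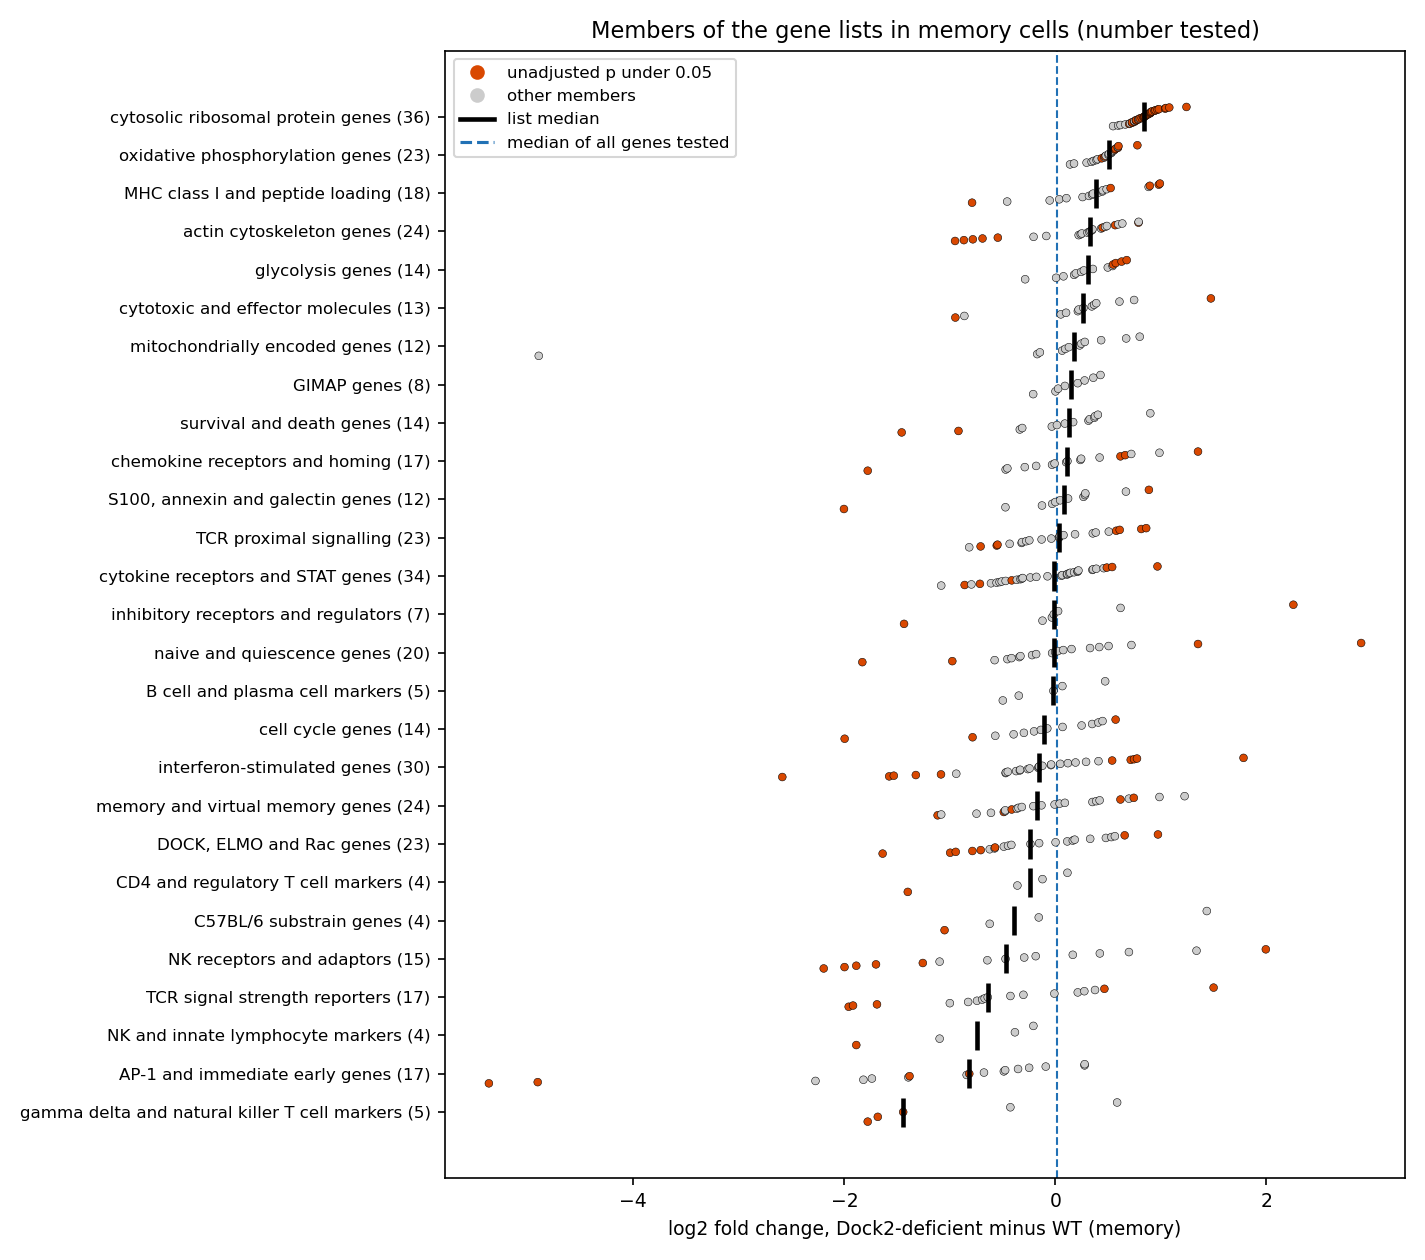
Log2 fold change in memory cells (horizontal axis) of each tested member (points) of the gene lists, 1 list per line with the number tested. Orange points have an unadjusted p under 0.05, black bars are list medians, and the dashed line is the median of all genes tested. Ribosomal protein and oxidative phosphorylation genes lie wholly to the right of 0.

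Genes of the ribosome and of oxidative phosphorylation stood out by direction. All 36 tested cytosolic ribosomal protein genes had a log2 fold change above 0, with a median of 0.84, and 29 had an unadjusted p under 0.05 although 0 were called. All 23 oxidative phosphorylation genes were above 0 as well, with a median of 0.50 and 7 at an unadjusted p under 0.05. Over all 9437 genes tested, 4801 were above 0 and 16.4% had an unadjusted p under 0.05 in limma. Rpl3, of the large subunit, was 5680.4, 4467, 7010.2 and 4524 in the wild-type and 5924, 10177, 16344, 5487 and 21266 in the Dock2-deficient libraries of memory cells. Libraries 2, 3 and 5 were above the wild-type range and libraries 1 and 4 were inside it (0.95 ± 0.38, limma, adjusted p = 0.267). Rpl4 had a log2 fold change of 0.75 (adjusted p = 0.311). Without wild-type library 4 and Dock2-deficient library 5, Rpl3 was at 0.61 and Rpl4 at 0.45, the ribosomal median was 0.53, with 2 members at an unadjusted p under 0.05, and the oxidative phosphorylation median was 0.34. The first members of the latter, the complex I genes Ndufa1, Ndufa2 and Ndufa4, had 0.59, 0.51 and 0.34 (adjusted p = 0.259, 0.317 and 0.499).

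Most genes of these lists are short, and log2 fold changes were graded by gene length. Of the ribosomal protein genes 28 of 36, and of the oxidative phosphorylation genes 16 of 23, were in the shortest of 4 equal bins by exonic length. Among genes with a mean of at least 50, split into 4 bins of 960 genes, the median log2 fold change was 0.36, 0.09, -0.16 and -0.41 from the shortest to the longest, and 81.9%, 57.2%, 37.6% and 22.7% were above 0. The levels of long minus short genes per library, as a median log2 deviation, were 0.22, 0.52, 0.05 and 0.36 in the wild-type and 0.01, -0.40, -0.64, 0.35 and -1.58 in the Dock2-deficient libraries. Only library 4 of the Dock2-deficient libraries was inside the wild-type range, and the groups did not differ past the test (exact permutation p = 0.0635, adjusted 0.178). With the trend on length removed within each library the medians were 0.67 for ribosomal protein genes, with 27 at an unadjusted p under 0.05, and 0.35 for oxidative phosphorylation genes. Dock2, with 11425 exonic bases, then had a log2 fold change of -1.32 (adjusted p = 0.0556), and Cxcr6 passed (-1.95, adjusted p = 0.0157). The part of RNA quality in these values was not tested.

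**Figure D4:**
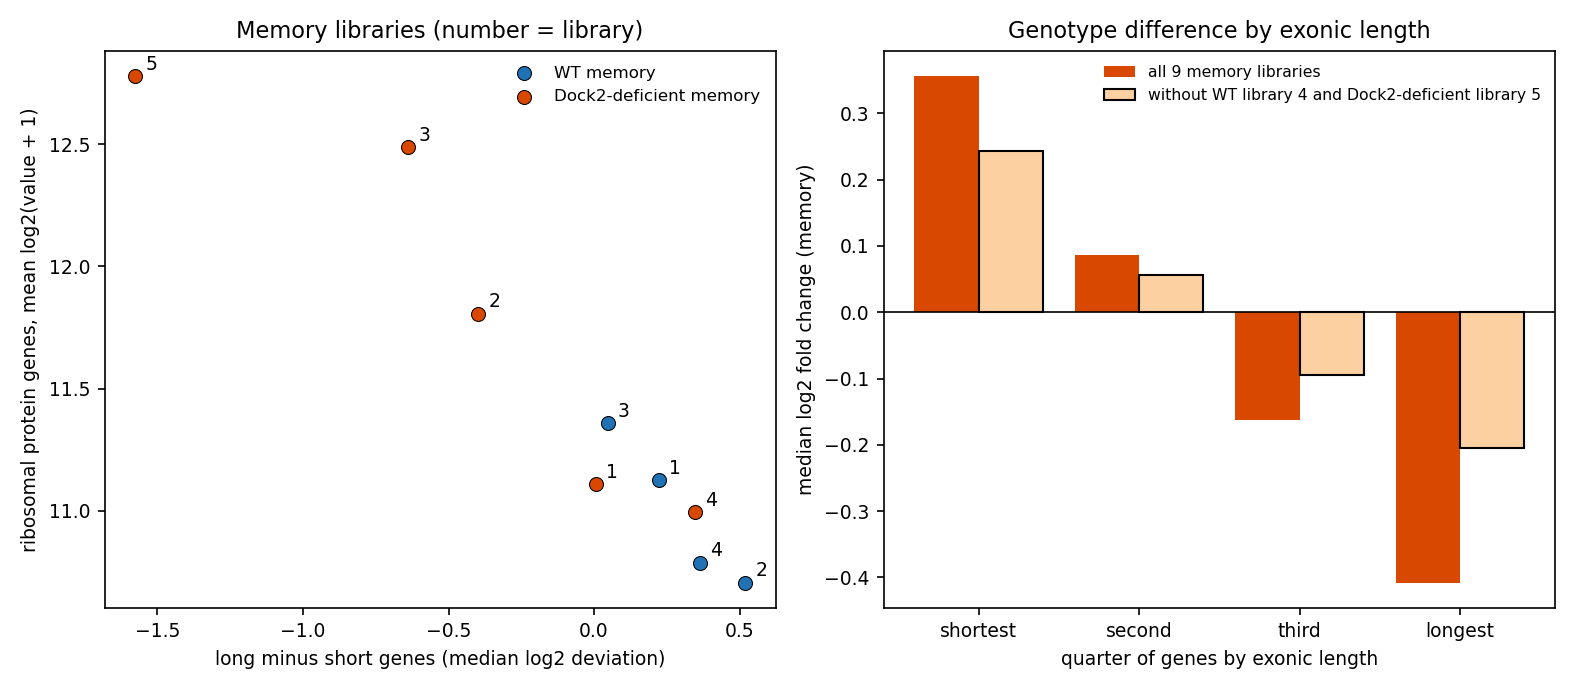
Left, mean log2(value + 1) of ribosomal protein genes (vertical axis) against the level of long minus short genes (horizontal axis) in each memory library, numbered by library. Right, median log2 fold change by bin of exonic length with all 9 memory libraries (0.36 to -0.41) and without wild-type library 4 and Dock2-deficient library 5 (0.24 to -0.20).

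The remaining lists had 0 called. Class I antigen presentation genes had 0.38 over 18 tested, with the classical heavy chain genes H2-K1 at 0.88 and H2-D1 at 0.99 and the non-classical gene H2-Q4 at 0.45 (limma, adjusted p = 0.307, 0.295 and 0.514). Both classical genes were at 0.51 without wild-type library 4 and Dock2-deficient library 5. Chemokine receptors and homing genes had 0.11 over 17, and the inflammatory receptor Ccr2 overlapped (0.72, adjusted p = 0.526). Cytokine receptors and STAT genes had -0.01 over 34. The shared chain Il2rg and the IL-4 receptor chain Il4ra had 0.22 and 0.11 (adjusted p = 0.524 and 0.799). Survival and death genes had 0.13 over 14, with the anti-apoptotic genes Bcl2, Bcl2l1 and Mcl1 at 0.09, 0.33 and -0.31 (adjusted p = 0.858, 0.666 and 0.486). Glycolysis genes had 0.31 over 14. Among the cell cycle genes (-0.11 over 14), the proliferation marker Mki67 was 14.9, 13.9, 26.5 and 40.2 in the wild-type and 7.10, 2.47, 5.16, 8.51 and 2.65 in the Dock2-deficient libraries of memory cells. It was lower in all 5 without overlap (-1.997 ± 0.74, adjusted p = 0.254), whereas the DNA replication gene Mcm2 overlapped on the other side (0.57, adjusted p = 0.292) and the mitotic gene Top2a overlapped too (0.35, adjusted p = 0.82). Other genes that did not pass and moved by over 1.5 times when both of those libraries were left out were Ccr9 (0.63), Gzma (1.16), Nr4a1 (-0.37), Rac2 (0.33), Actb (0.19), Arpc1b (0.28), H2-Q4 (0.18), Ifit1 (-1.47), Ndufa2 (0.33) and Mcm2 (0.23).

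The naive comparison, which used other libraries of the same mouse groups, called 13 genes (0.138%) and gave 576 genes (6.1%) at an unadjusted p under 0.05 and 256 (2.71%) without overlap. Of the 13, Fcgrt and Pydc3 were also called in memory cells, and 11 had the same sign there, beside 59.0% of all genes. Of these 11, 5 did not overlap there in the same direction, Fcgrt and Pydc3 included, beside 4.44% of all genes in either direction. The unnamed gene 5830411N06Rik, named here after its values were seen, was among them, at 32.3, 14.5, 23.2 and 24.5 in the wild-type and 97.6, 128, 117, 95.3 and 96.4 in the Dock2-deficient libraries of memory cells. The groups were far apart (2.17 ± 0.59, limma, adjusted p = 0.228; naive 3.01, adjusted p = 0.0407), and in a fit of the 9 memory libraries alone it was called (adjusted p = 0.0112). Ly6a, the surface antigen Sca-1, was 33.7, 29.7, 29.7 and 22.7 against 23.1, 143, 143, 55.1 and 148. Dock2-deficient library 1 was inside the wild-type range and the other 4 were above it (1.499 ± 0.43, adjusted p = 0.228, and 2.34 in naive cells). Library 1 was also the only Dock2-deficient memory library with Xist, so Ly6a moved with Xist as well as with genotype. Its log2 fold change was 0.29 to 1.95 over the alternatives, and it was called without library 1 (1.95, limma, adjusted p = 0.0174). Lgals1, which encodes galectin-1, had 116 ± 30.4 (SD, n = 4) and 221 ± 70.6 (SD, n = 5) in memory cells (0.89 ± 0.26, adjusted p = 0.228; naive 1.82). Across all 9437 genes the naive and memory log2 fold changes had a Pearson r of 0.27 and a Spearman rho of 0.23, and 59.0% had the same sign. Sex and substrain are shared by both comparisons, and genes are not independent replicates.

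**Figure D5:**
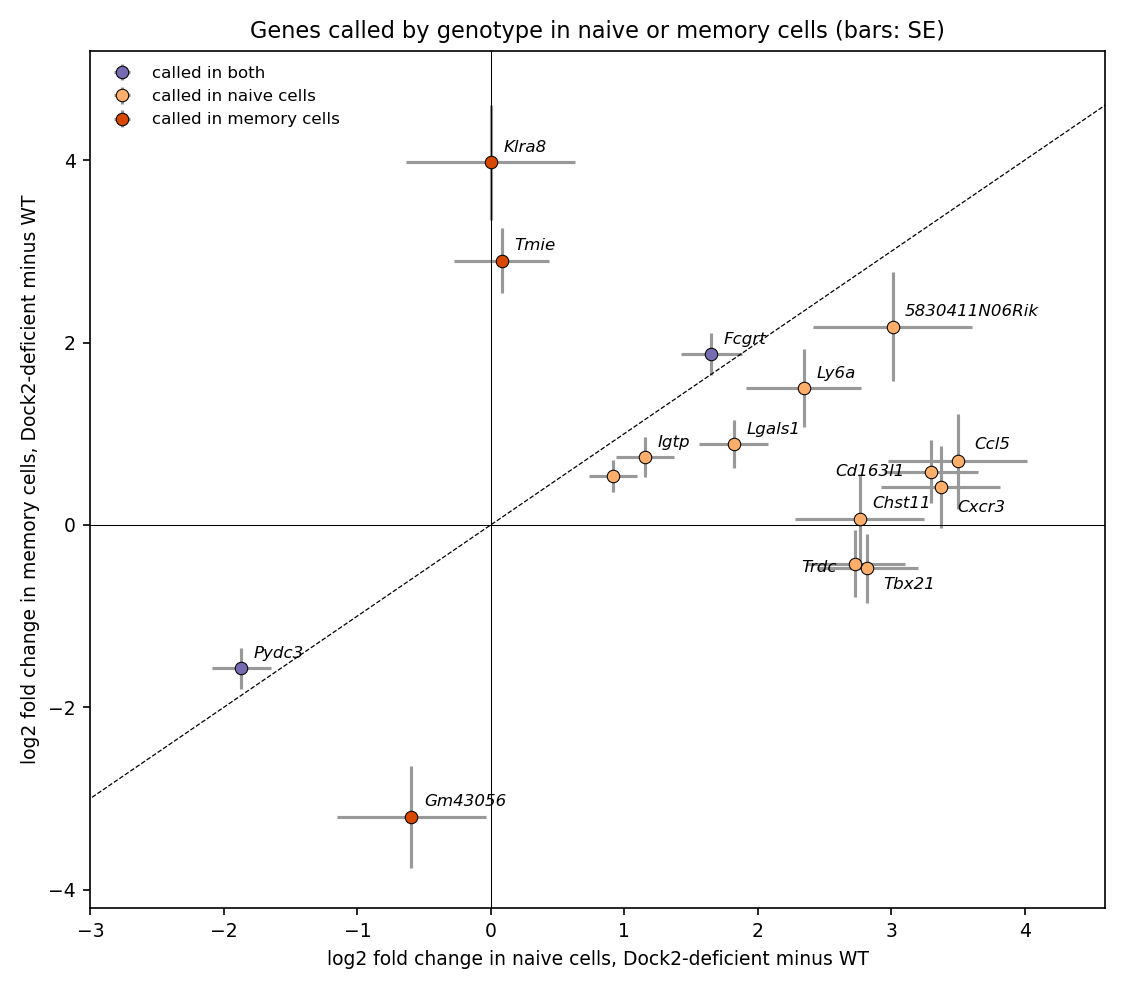
Log2 fold change with SE of the genes called in naive or memory cells, in naive (horizontal axis) and memory cells (vertical axis). Fcgrt and Pydc3 lie near the dashed line of equal change, Tmie, Klra8 and Gm43056 near 0 on the naive axis, and Tbx21 and Trdc near 0 on the memory axis. A single point is drawn without a label.

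The change in memory cells differed from that in naive cells for 3 genes (0.0318%; 492 genes, 5.21%, at an unadjusted p under 0.05). Besides Tmie these were Tbx21 and Trdc, both of which were higher in Dock2-deficient naive cells. Tbx21, the gene of T-bet, a transcription factor of effector and memory cells, was 379.7, 569.9, 438 and 648 in the wild-type and 433, 331, 272, 517 and 292 in the Dock2-deficient libraries of memory cells. These overlapped (-0.47, limma, adjusted p = 0.523), and the memory change was below the naive change by 3.29 ± 0.54 (adjusted p = 0.0287). Trdc, the constant segment of the delta chain of the gamma delta T cell receptor, was 8.32, 18.9, 14.6 and 16.6 against 10.7, 13.6, 6.89, 11.1 and 9.79 in memory cells. These overlapped too (-0.43, adjusted p = 0.56), and its memory change was below the naive change by 3.16 ± 0.52 (adjusted p = 0.0287). The Tbx21 difference was called without wild-type library 1 or Dock2-deficient library 4 but in none of the other 7 fits that left out 1 memory library, and the Trdc difference only without wild-type library 1 (adjusted p up to 0.0786 for both, without Dock2-deficient library 3).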

How the data were processed

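Gene expression of sorted mouse CD8 T cells was sequenced in 18 libraries. Per the labels' protocols, a Qiagen RNAeasy kit gave the RNA and Smartseq2 the libraries. The submitters' processing notes name bcl2fastq, FastQC, RSEM and the build mm10. For the aligner, annotation, versions and cell sort, details are not given in the sources used here. Values that the authors deposited are a normalized signal per gene, RSEM expected counts divided by a factor per library. All values (100%) lay on a grid of 0.01 reads divided by that factor, which gave back the expected reads. Smartseq2 does not mark strand, so reads of overlapping antisense genes cannot be told apart. Positions and exonic lengths came from GENCODE M21, in which 46488 identifiers (98.9%) were found.

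Groups and numbers were read from the titles. Genes at 10 or more in at least 4 libraries were tested as log2(value + 1), which understates the change of low genes, with limma 3.58.1 in R 4.3.3. The model had 1 mean for each of 4 groups, 14 residual degrees of freedom and moderation of variances along the mean. Tests were two-sided, with Benjamini-Hochberg adjustment over 9437 genes and a threshold of 0.05. Library measures were compared over all arrangements of 4 and 5 libraries by an exact permutation test, where the smallest two-sided p is 0.0159. On simulated data, 40% of 100 genes changed 2-fold and 94% of 100 changed 4-fold were called among 9224 genes, with 8 unchanged genes called. The simulated reads were drawn independently, with no library apart from its group and no trend on length. These rates therefore cannot be carried over to the real libraries. Python 3.11.15, numpy 2.4.6, pandas 2.3.3, scipy 1.17.1, matplotlib 3.10.9 and biopython 1.88 were used.

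The comparison and the gene lists were chosen with earlier results of these data known. Named were the genes past the threshold, then up to 15 in each direction by smallest unadjusted p with a mean of at least 50, no overlap and a log2 fold change of at least 1 in size, without unnamed models, pseudogenes and receptor segments, and Dock2. Of each list, members past the threshold and the first 3 tested were taken, and these are given for the lists described at length. Other list members were named after their values were seen. Some genes that these rules take are not reported here. The lists received no set test. Replicates of a group differed by more than sampling noise (chi-square per degree of freedom 4.68 to 167). Alternatives covered the pseudocount, filter, scaling, variance model, weights, blocks, sex, length and left-out libraries.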

Additional observations from a re-analysis of the deposited data

Results flagged for a closer look

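Among the 40 groups checked for a library far from the others, 1 was found, and chance gives about 1 in 20. It was Dock2 in wild-type memory cells, where library 4, at 844, was separated from the next, at 459, by 0.866 of the range of the 4 libraries. Without that library the log2 fold change of Dock2 was -1.40 (limma, adjusted p = 0.315).

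For 3 genes the genotype change in memory cells differed from that in naive cells in a test of the difference itself: Tmie by 2.82, Tbx21 by -3.29 and Trdc by -3.16 on the log2 scale. Tmie was at 44.95 in wild-type and 47.8 in Dock2-deficient naive cells on average, and differed in memory cells. Tbx21 was 18.2, 5.42, 2.79 and 3.39 in the wild-type and 42.7, 81.5, 28.7, 42.5 and 50.8 in the Dock2-deficient naive libraries. Trdc was 2.43, 3.63, 4.19 and 5.65 in the wild-type and 42.0, 34.003, 19.5, 45.7 and 22.9 in the Dock2-deficient naive libraries. Both were higher in every Dock2-deficient naive library, and both overlapped in memory cells.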

How the results depend on the processing

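The count of 5 called genes was 16 with a pseudocount of 10, 10 with no filter on low values, 2 with a filter at 50, 3 in a fit of the 9 memory libraries alone, 11 without a variance trend, 40 with array quality weights and 0 with a term for sex (598 genes at an unadjusted p under 0.05). Leaving out 1 memory library gave 3 to 13, with 3 without Dock2-deficient library 3, 13 without library 1 and 8 without library 4. The 3 called in the fit of the 9 memory libraries alone were Fcgrt, Klra8 and 5830411N06Rik. Pydc3 (limma, adjusted p = 0.0525), Tmie (0.276) and Gm43056 (0.327) lost their call in that fit. The count of 3 genes whose change differed from naive cells was 0 with no filter, 1 with a filter at 50, 9 without a trend, 5 with array weights, 0 with voom weights, 0 without wild-type library 4 and Dock2-deficient library 5, and 0 to 2 with 1 library left out. It was 0 without wild-type library 3 or 4 or Dock2-deficient library 1, 2, 3 or 5, and 1 without library 4. Array weights made Dock2 pass (-1.32, limma, adjusted p = 0.0289). Outside the length trend and the marker sum without Cxcr6, which were chosen after seeing the data, the alternatives were planned. Scaling to the total moved the median of all genes to -0.27 and upper quartile scaling to 0.12.

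The replicate numbers were not stated to pair libraries. Same-numbered wild-type and Dock2-deficient memory libraries had deviations correlated at 0.01 to 0.11, and 1 of 4 pairs matched its own number best. With the number as a replicate block over the memory libraries 0 genes were called (969 at an unadjusted p under 0.05), and Dock2 was -1.28 (adjusted p = 0.115). This block drops Dock2-deficient library 5, which has no wild-type partner. With naive and memory libraries of a number as a replicate block by estimated correlation, 5 genes were called.

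Of 2904 values of named genes under alternatives, 43 changed sign, none of them past the test. With array weights these were Cd44 -0.058, Klrd1 -0.034, Dock5 -0.46 and Bcl2 -0.061. With scaling to the total they were Cd44 -0.26, Klrd1 -0.13, Chst11 -0.21, Prf1 -0.075, Il2rg -0.079, Il4ra -0.19 and Bcl2 -0.21. Quantile normalization gave Actb -0.096, Actg1 -0.36 and Il2rg -0.22, voom weights Chst11 -0.23, the block Klrd1 -0.032 and the length trend Klrd1 -0.073. The sex term gave Ly6c2 -0.24, Gzma -0.067, Klrd1 -0.26, Nr4a1 0.20, Cxcr3 -0.48, H2-Q4 -0.092, Fos 0.34, Fosb 0.57 and Ndufa4 -0.079. Without wild-type library 4 and Dock2-deficient library 5 they were Cd44 -0.13, Klrd1 -0.15, Dock5 -0.19, Bcl2 -0.080 and Mcl1 0.023. With 1 library left out 7 genes ranged over 0: Chst11 -0.20 to 0.41, Cd44 -0.16 to 0.12, Top2a -0.26 to 0.86, Dock5 -0.58 to 1.04, Bcl2 -0.038 to 0.23, Klrd1 -0.032 to 0.30 and Ifit3 -0.70 to 0.10. The causes were not tested. Of the called genes, Fcgrt and Pydc3 were called in 25 and 24 of 27 alternatives, Tmie in 22 of 26, Klra8 in 20 of 27 and Gm43056 in 16 of 26.

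Depth limits low genes: Tmie, Klra8 and Gm43056 rest on fewer than 100 reads in 1 group at least. Simulated 2-fold changes, made only in genes with a mean of at least 50, were missed more often than found. Substrain and genotype cannot be told apart in these libraries. Among the memory libraries, sex was set apart from genotype only through Dock2-deficient library 1.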
